A study of Mus musculus with 16 samples.

Results

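The Dlk1, Meg3 and Mirg imprinted locus was described here by the histone peaks that overlap the mm9 window chr12:110680000-111000000. This stretch of 320 kb holds Dlk1 near 110.69 Mb, Meg3 near 110.78 Mb and Mirg near 110.97 Mb, with Rtl1 and Rian between Meg3 and Mirg. Across the 24 deposited peak lists 9 peaks of 289751 overlapped the window. Of these, 6 stood in lists against whole-cell extract, which held 253585 peaks in all, and 3 in difference lists, which held 36166. The material was mouse mesenchymal stem cells (MSCs), adult stromal cells, of the C57BL/6 strain, grown as immortalized lines that each descend from 1 clone. They carried either floxed, intact Dicer (Dicer f/f, WT) or deleted Dicer (Dicer -/-, KO), and were grown in the same serum-containing medium. H3K4me3, H3K36me3 and H3K27me3 were each profiled in 2 libraries per genotype, numbered replicate 1 and 2. Since the lines were monoclonal and nothing in the labels ties the replicates to separate clones or cultures, Dicer genotype and clone cannot be told apart, and the spread between replicates may be technical. The cell type could not be checked against marker genes, because the lists pair no position with a gene.

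The locus is one of the mouse imprinted clusters, in which a gene is read from 1 parental copy only. Dlk1, a transmembrane ligand related to the Notch ligands that holds back adipocyte differentiation, and Rtl1, a retrotransposon-derived gene needed in the placenta, are read from the paternal copy. Meg3, Rian and Mirg are noncoding RNAs read from the maternal copy, Rian carries many small nucleolar RNAs, and most microRNAs of the cluster are cut from maternal transcripts on the same strand. Dicer makes mature microRNAs from such precursors, so a line without it cannot process this cluster in the usual way, whatever its chromatin. H3K4me3 marks active and poised promoters, H3K36me3 the bodies of transcribed genes, and H3K27me3 is laid down by Polycomb repressive complex 2. A peak list does not part the parental copies.

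The microRNAs are shown because they are the feature for which the locus is best known. RefSeq's GRCm38.p6 gene table has 60 microRNA genes and 19 small nucleolar RNA genes between the start of Dlk1 and the end of Mirg. All 60 matched the RefSeq microRNA table, with 111 mature names, which is 6.61% of the 1679 mature names of that table, and 105 of the 111 lie on the plus strand. By their place in the gene order, 2 microRNA genes start within Meg3 before Rtl1, 15 between the starts of Rtl1 and Rian, 33 between the starts of Rian and Mirg, and 10 after the start of Mirg. The seed, bases 2 to 8 of the mature microRNA, is the part that pairs with a target, and it stands in capitals in each sequence below, written 5′ to 3′. The first 3 belong to precursors that lie antisense to Rtl1.
miR-127-3p: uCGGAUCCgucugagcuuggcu
miR-433-3p: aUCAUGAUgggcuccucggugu
miR-136-5p: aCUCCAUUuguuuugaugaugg
The 111 names had 102 different seeds, and 9 seeds were shared by 2 names each. The pairs miR-379-3p with miR-411-3p, miR-494-5p with miR-410-5p, and miR-376c-5p with miR-376b-5p are shown as examples of a shared seed.
miR-379-3p: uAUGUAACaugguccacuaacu
miR-411-3p: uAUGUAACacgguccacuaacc
miR-494-5p: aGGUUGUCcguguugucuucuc
miR-410-5p: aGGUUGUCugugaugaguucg
miR-376c-5p: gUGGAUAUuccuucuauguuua
miR-376b-5p: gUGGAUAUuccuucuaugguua
The series is titled for let-7, whose 8 names of the 5p arm in the table share a single seed, shown with let-7a. None of the 111 names of the locus had that seed.
let-7a-5p: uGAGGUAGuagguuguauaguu

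The promoters of Dlk1 and Meg3 are shown because the peaks of the window lay near Dlk1 and in the stretch from Meg3 to Mirg. Each is the RefSeq sequence from 250 bases before to 50 bases after an annotated start. Its coordinates belong to GRCm38.p6 and cannot be set against the mm9 peaks. Capitals mark matches, on either strand, to the motifs TGACGTCA (the cyclic AMP response element, a palindrome), TATAAA and CCAAT.
Dlk1, GRCm38.p6, plus strand, chr12:109452573-109452872: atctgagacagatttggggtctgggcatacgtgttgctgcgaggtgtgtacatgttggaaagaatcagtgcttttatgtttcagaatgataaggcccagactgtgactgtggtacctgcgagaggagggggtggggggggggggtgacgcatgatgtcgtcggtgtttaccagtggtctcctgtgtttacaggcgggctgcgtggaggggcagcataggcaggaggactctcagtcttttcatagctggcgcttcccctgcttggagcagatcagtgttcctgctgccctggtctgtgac
Meg3, GRCm38.p6, plus strand, chr12:109540746-109541045: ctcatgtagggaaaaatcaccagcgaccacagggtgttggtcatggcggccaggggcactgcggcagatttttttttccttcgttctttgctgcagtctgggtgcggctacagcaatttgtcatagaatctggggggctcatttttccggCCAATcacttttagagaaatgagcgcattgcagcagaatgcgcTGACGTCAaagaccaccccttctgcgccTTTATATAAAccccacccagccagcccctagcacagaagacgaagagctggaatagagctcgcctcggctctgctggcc
The table has another Meg3 start (chr12:109545148-109545447 in GRCm38.p6, not printed), whose window held none of the 3 motifs and 1 CpG, with 94.6% of promoters holding at least as many. The Dlk1 window held none of the 3 motifs. The printed Meg3 window held 1 TGACGTCA, 1 CCAAT and 2 overlapping matches to TATAAA, one on each strand. Among the 32851 promoters of this length in the table, TGACGTCA was found in 1.79%, TATAAA in 13.6% and CCAAT in 37.4%. The Dlk1 window held 9 CpG dinucleotides and the printed Meg3 window 13, against a median of 7 over all promoters, and 45.8% and 37.9% of promoters held at least as many. The window at the annotated Mirg start held 10 CpG, with 43.5% of promoters holding at least as many, and 1 CCAAT. It contains the mature sequences of miR-668-5p, miR-668-3p and miR-485-3p, so its CpG count includes bases of microRNAs. The Rian window held 0 CpG and none of the 3 motifs. A match of letters does not show that a factor binds there.

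Peaks of any mark covered only a small part of the window in either genotype, and all of that coverage came from replicate 2. H3K4me3 peaks covered 2946 bp in KO replicate 2, 672 bp in WT replicate 2, and 0 bp in replicate 1 of either genotype. H3K27me3 peaks covered 0 bp in KO replicate 1, KO replicate 2 and WT replicate 1, and 2138 bp in WT replicate 2. H3K36me3 peaks covered 0 bp in all 4 libraries. The largest of these values, 2946 bp, is 0.921% of the window. The H3K4me3 groups overlapped at 0 bp, and so did the H3K27me3 groups. Mean H3K4me3 coverage was 1473 ± 2083 bp in KO and 336 ± 475 bp in WT (SD, n = 2), a difference of 1137 bp (exact two-sided permutation test, p = 1). Mean H3K27me3 coverage was 0 ± 0 bp in KO and 1069 ± 1512 bp in WT (SD, n = 2), a KO minus WT difference of -1069 bp (exact two-sided permutation test, p = 1). With 2 libraries per genotype the smallest p that this permutation test can give is 0.333. With 0 bp in replicate 1 of both genotypes, however, its result for each mark was fixed whatever the replicate 2 values. No conclusion is drawn from it. Read counts and depth were not used here, so a weak signal below the calling threshold and no signal look alike in these lists.

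**Figure D1:**
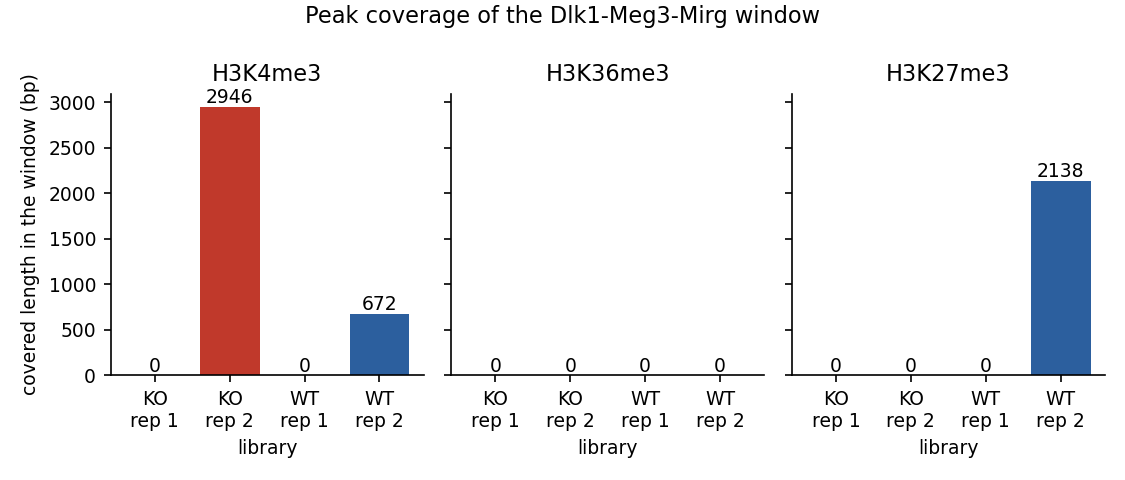
Length covered by peaks against whole-cell extract in the 320 kb window (bp, vertical axis) for each of the 12 ChIP libraries, 1 bar per library, KO in red and WT in blue. Coverage above 0 is seen in 3 libraries, all numbered replicate 2: H3K4me3 KO (2946 bp), H3K4me3 WT (672 bp) and H3K27me3 WT (2138 bp).

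The list lengths moved with the replicate number, and their part in these values was not tested. Replicate 2 lists covered 52.7 Mb (KO) and 44.1 Mb (WT) for H3K4me3 against 32.2 and 25.0 Mb in replicate 1. For H3K27me3 they covered 34.4 and 37.9 Mb against 0.732 and 4.67 Mb. H3K36me3 lists covered 87.0 to 176.6 Mb, and none of the 4 had a peak in the locus. As a share of all length covered by its list, the window took 0.0056% in H3K4me3 KO replicate 2, 0.00153% in H3K4me3 WT replicate 2 and 0.00563% in H3K27me3 WT replicate 2. Chromosomes 1 to 19 and X were also tiled into 8246 windows as wide as the locus. Of these, 870 (10.6%) had a peak in some replicate 2 list and none in any replicate 1 list, as the locus did.

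Near Dlk1, H3K4me3 was listed at a pair of narrow regions, one in both genotypes and one in KO alone. The first, chr12:110684402-110685443 in mm9, was covered over 1042 bp in KO replicate 2 and 672 bp in WT replicate 2, and over 0 bp in both replicate 1 libraries. It held no difference peak, so neither genotype was called higher there. The second, chr12:110687787-110688880, lay 2343 bp further on and was covered over 1094 bp in KO replicate 2 and 0 bp in the other 3 libraries. It held a difference peak of KO replicate 2 with the same coordinates as the peak against extract. That makes it KO-higher in replicate 2, on the reading that a difference list sets a library against the other genotype. KO replicate 1 had no difference peak there. Both regions lie within 10 kb of the stated Dlk1 position, which is itself approximate, and neither can be called the Dlk1 promoter from these lists.

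H3K27me3 was listed near Dlk1 on the far side of these regions, in a WT library. The region chr12:110690959-110691885 was covered over 927 bp in WT replicate 2 and had no coverage in the other 3 libraries. It began 2078 bp after the end of the KO-higher H3K4me3 region and shared no base with it. It held a difference peak of WT replicate 2 with the same coordinates, so it was WT-higher in replicate 2 and not in replicate 1. The part of the window nearest to Dlk1 thus had 2136 bp of H3K4me3 and 0 bp of H3K27me3 in KO replicate 2. The same part had 672 bp of H3K4me3 and 927 bp of H3K27me3 in WT replicate 2.

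Further along, between the stated positions of Meg3 and Mirg, both marks were listed at 1 site, each in a different genotype. H3K4me3 at chr12:110834164-110834973 was covered over 810 bp in KO replicate 2 and 0 bp in the other 3 libraries, and it held no difference peak. H3K27me3 at chr12:110834813-110836023 was covered over 1211 bp in WT replicate 2 and 0 bp in the other 3 libraries, and it was WT-higher in replicate 2. These regions shared 161 bp. Neither genotype listed both marks here. Over the genome a wider class was counted, with no condition on H3K4me3 in WT. Of 23818 H3K4me3 peaks of KO replicate 2, 959 (4.03%) were overlapped by H3K27me3 of WT replicate 2 and not of KO replicate 2. How many of them also had H3K4me3 in WT was not counted. The site lies in the stretch in which the gene order places Rtl1 and Rian, but the lists do not say which of them it falls in. No peak of the 12 lists against extract lay nearer to Mirg than to Meg3, where 0 bp were covered in every library.

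**Figure D2:**
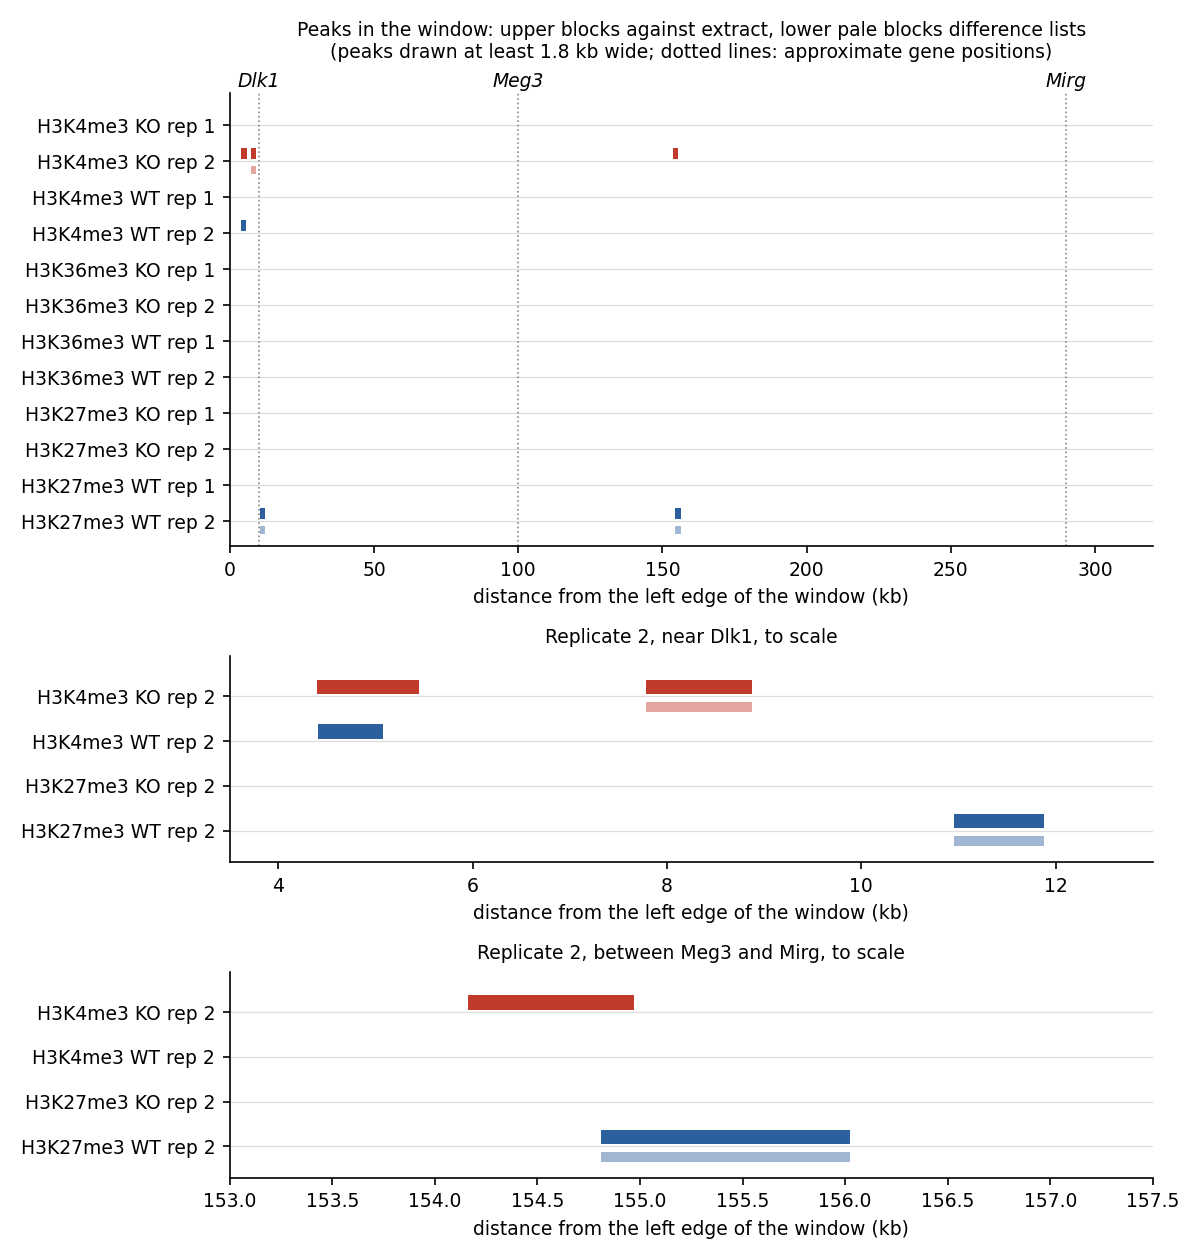
Peaks of each library along the window, as distance from its left edge in kb, with KO in red and WT in blue. Upper blocks are peaks against extract and pale lower blocks are difference peaks, the top panel draws peaks wider than they are, and the lower panels show the replicate 2 lanes to scale. Near Dlk1 the H3K4me3 and H3K27me3 peaks stand apart, while between Meg3 and Mirg the KO H3K4me3 peak and the WT H3K27me3 peak share 161 bp.

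Counted by regions, which are the merged peaks of the 4 lists of a mark, no region of the locus was called in both replicates. For H3K4me3, 0 of 3 regions were KO-higher in both replicates, where 10.8% of 25204 regions genome-wide were, and 0 of 3 were WT-higher, where 1.12% were. In replicate 2 alone 1 of 3 was KO-higher, beside 23.8% of all regions. Of the 2 regions listed in KO replicate 2 and no other library 1 was KO-higher in replicate 2, beside 63.4% of the 5182 such regions. For H3K27me3, 0 of 2 regions were WT-higher in both replicates, where 3.76% of 24016 regions were, and 0 of 2 were KO-higher, where 0.171% were. In replicate 2 alone 2 of 2 were WT-higher, beside 21.0% of all regions. Both were listed in WT replicate 2 and no other library, and 34.4% of the 7818 such regions were WT-higher in replicate 2. No region of the locus was listed against extract in replicate 1, while the shares over all regions include regions that were. The calls in both replicates thus have no matched background here. With 3 and 2 regions the shares are also too coarse to set the locus apart from the background. For H3K36me3 there was no region to call.

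The peaks of the locus were weak within their own lists. The deposited score of a peak, never under 80, is the authors' own value and serves here only to rank peaks within 1 list. In H3K4me3 KO replicate 2, whose median score was 1637, the 3 peaks scored 195.9, 407.2 and 98.5 in the order of the window. Of that list, 18.2%, 31.3% and 4.23% of peaks scored lower. The H3K4me3 peak of WT replicate 2 scored 93.8, with 2.37% of its list lower, and was among the narrowest, with 1.20% of peaks narrower. The H3K27me3 peaks of WT replicate 2 scored 136.2 and 151.1 against a median of 207.2, with 32.3% and 37.6% of the list lower. In the difference lists the H3K4me3 peak of KO replicate 2 near Dlk1 stood higher, with a score of 399.1 and 84.9% of that list lower. The H3K27me3 difference peaks of WT replicate 2 scored 103.1 and 104.6, with 17.6% and 18.6% lower. All 6 peaks against extract were narrower than the median peak of their list, which was 1844 bp for H3K4me3 KO replicate 2, 2163 bp for H3K4me3 WT replicate 2 and 1472 bp for H3K27me3 WT replicate 2.

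**Figure D3:**
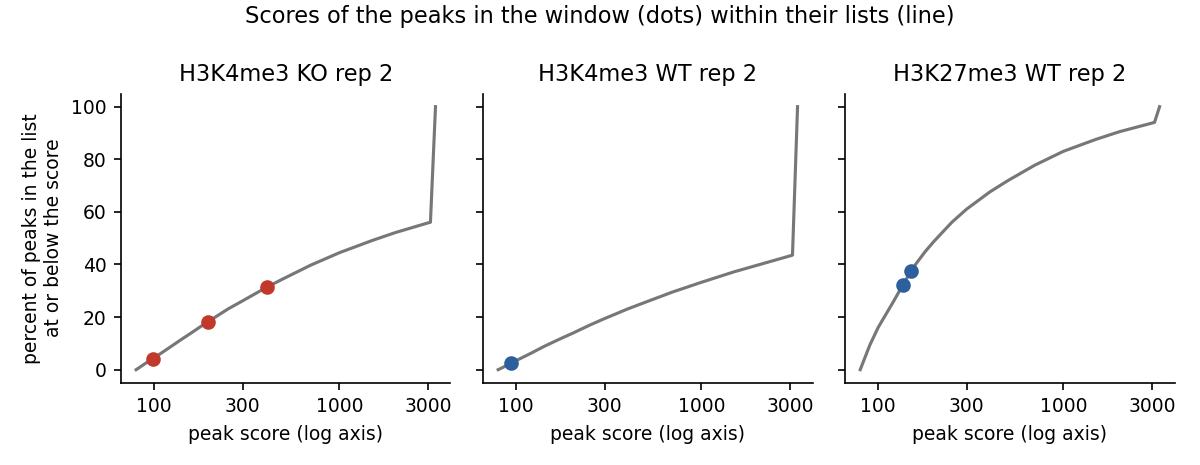
Percent of peaks in a list (vertical axis) at or below each score (horizontal log axis) for the 3 lists with peaks in the window, with the peaks of the window as dots (KO red, WT blue). All 6 dots stand in the lower part of their list, the highest at 37.6% for H3K27me3 in WT replicate 2.

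In the 3 lists with a peak at the locus, its coverage was set beside all windows of the same width. It was above the median window in H3K4me3 KO replicate 2 (median 2265.5 bp) and H3K27me3 WT replicate 2 (median 0 bp), and below it in H3K4me3 WT replicate 2 (median 1837.5 bp). In H3K4me3 KO replicate 2, 37.1% of windows had no peak and 47.1% were covered over more than the 2946 bp of the locus. In H3K4me3 WT replicate 2, 42.5% had none and 57.1% were covered over more than 672 bp. In H3K27me3 WT replicate 2, 60.8% had none and 30.7% were covered over more than 2138 bp. Absence of H3K36me3 was common, as 4298 of 8246 windows (52.1%) had no peak of it in any of the 4 libraries. Windows that lacked H3K36me3 but had H3K4me3 and H3K27me3 in at least 1 library each numbered 712 (8.63%). The listing of the locus in all 12 libraries, with KO above WT in H3K4me3 replicate 2, was met in 12 windows (0.146%), a pattern that was itself defined from the locus. Libraries of the same mark did not separate by genotype at the locus, which the 0 bp in replicate 1 of both genotypes fixed in advance. Both KO libraries were above both WT libraries in 12.8% of windows with H3K4me3. Both WT libraries were above both KO libraries in 5.80% of windows with H3K27me3. Those windows include ones with replicate 1 peaks, so these shares are no matched background for the locus.

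**Figure D4:**
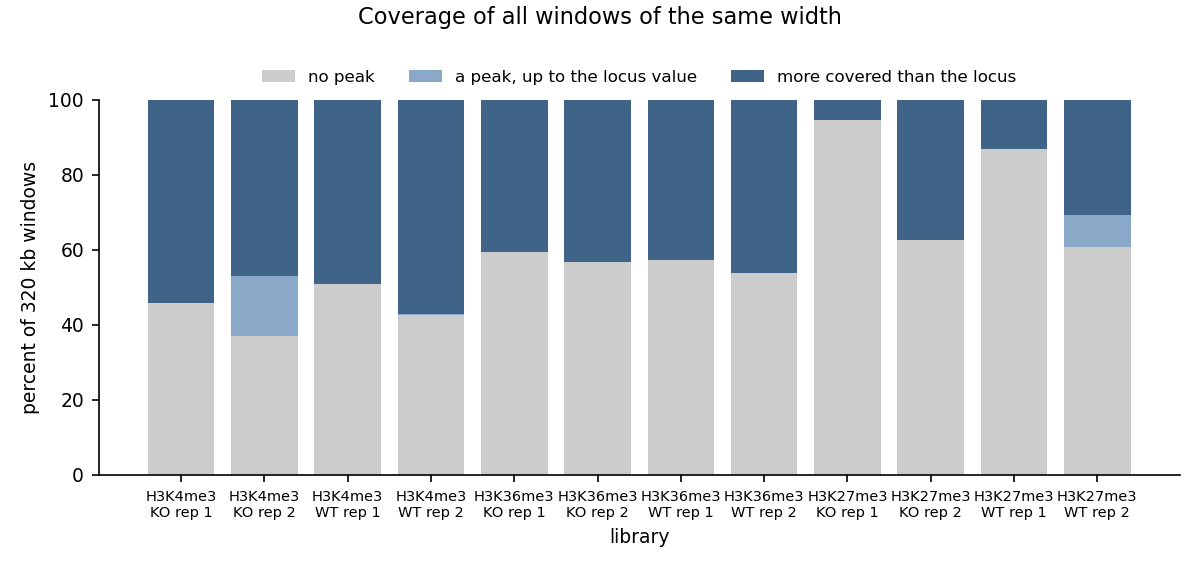
Percent of 320 kb windows over chromosomes 1 to 19 and X (vertical axis) that had no peak, a peak up to the covered length of the locus, or more covered length than the locus, for each of the 12 libraries. In the 9 libraries without a peak at the locus the middle class is empty, and in H3K4me3 KO replicate 2 the locus had less coverage than 47.1% of windows.

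Within replicate 2, H3K4me3 coverage of the locus was 4.38 times as long in KO as in WT, with 1 library on each side and thus no replicate check. Over whole lists this ratio was 1.20, and its median over the 4590 windows with a peak in both libraries was 1.15. KO coverage was longer than WT coverage in 76.4% of the 5334 windows with a peak in either library. A ratio of at least 2 was found in 6.86% of the 4590 windows. Among the 180 of them with at most 1 kb covered in WT, as in the locus, it was found in 37.8%. For H3K27me3, WT replicate 2 had a peak and KO replicate 2 had none in 20.4% of the 3868 windows with a peak in either, and the reverse held in 16.5%.

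The flanks differed by mark. H3K36me3 was absent well beyond the window: the stretch around it without a peak was 1167 and 1180 kb long in KO and 1635 and 1634 kb in WT. Of all gaps between neighbouring peaks of a list, 1.53% and 1.32% in KO and 0.834% and 0.804% in WT were at least as long. Such shares, here and for H3K27me3 below, count gaps and not their length. They are therefore not the share of the genome that lies in gaps as long, which was not computed. Which of the H3K36me3 gaps lie within a single domain of the mark was not examined. H3K27me3 had no peak over 3488 kb in KO replicate 2 and 3482 kb in WT replicate 1, and 0.647% and 8.00% of the gaps of those lists were at least as long. The nearest H3K27me3 peak to the left of the window lay 55.5 kb away in KO replicate 2 and 739 kb away in WT replicate 2. To the right these distances were 3112 and 425 kb. KO replicate 1 had no H3K27me3 peak between the window and the right end of the chromosome. H3K4me3 replicate 1 had no peak over 1192 kb in KO and 1551 kb in WT. KO replicate 2, in contrast, had 3 further H3K4me3 peaks just outside the left edge, on the Dlk1 side. Counted outward from the edge they were chr12:110675941-110676644, chr12:110662573-110663546 and chr12:110637887-110639187, at 3.36, 16.5 and 40.8 kb from it. The last held a difference peak in KO replicate 2, with a score of 242.7, and in KO replicate 1, with a score of 92.7. With the other genotype assumed as control, it was KO-higher in both replicates, beside 10.8% of all H3K4me3 regions. KO replicate 1 did not list it against extract. The middle one was KO-higher in replicate 2, beside 23.8% of all H3K4me3 regions. No other library had a peak against extract within 50 kb outside the window, on either side. With those 50 kb added, H3K4me3 covered 5925 bp in KO replicate 2 and 672 bp in WT replicate 2, and still 0 bp in both replicate 1 libraries.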

How the data were processed

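Chromatin of Dicer WT and KO lines was immunoprecipitated for H3K4me3, H3K36me3 and H3K27me3. The 4 whole-cell extract samples are not analysed here. The submitters' processing notes name Bowtie 0.12.7, the mm9 build and MACS (no version given here). Each library has a list against extract and a difference list, with a score per peak deposited by the authors whose formula is not given. No source used here names what a difference list was called against. The other genotype was assumed. The coordinates of 74.6% to 97.8% of difference peaks matched those of an extract-list peak from that library exactly, which names the library and not its control.

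Samples were grouped by title. Covered length was clipped to the window, and peaks of a mark's 4 extract lists were merged into regions where they overlapped or touched. A region was called where it met a difference peak by at least 1 bp. Coverage was compared by an exact two-sided permutation test over libraries. Python 3.11.15, NumPy 2.4.6, pandas 2.3.3 and Matplotlib 3.10.9 were used. The overlap code was checked on simulated lists made by shrinking merged regions of these data. It recovered 200 of 200 seeded regions for each mark, which does not measure the sensitivity of peak calling. All 5 members are named and all regions of the window are given. The members and rules were chosen with earlier results of these data known. Alternatives were a score of at least 160, peak midpoints, a window widened by 50 kb, shares of list length, each library left out, and a replicate block. RefSeq tables of GRCm38.p6 gave gene order and sequences only. No positions were converted between builds.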

Additional observations from a re-analysis of the deposited data

How the results depend on the processing

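Values were recomputed under the alternatives. The mean H3K4me3 difference (KO minus WT) of 1137 bp was 1068 bp with scores of at least 160, 2626.5 bp in the widened window and 0.00204 percentage points of list length. Leaving out 1 library at a time gave -336 to 2610 bp, and without KO replicate 2 the direction turned. The mean H3K27me3 difference of -1069 bp was 0 bp with scores of at least 160, where no H3K27me3 peak of the locus was left, and ranged from -2138 to 0 bp with 1 library left out, being 0 bp without WT replicate 2. H3K36me3 stayed at 0 bp under each alternative. Called in replicate 2 alone rather than in both replicates, regions numbered 1 for H3K4me3 and 2 for H3K27me3 instead of 0; with scores of at least 160, with 50% of the difference peak inside, or in replicate 1 alone they numbered 0. With the replicate block the differences were 1137 bp and -1069 bp (exact sign-flip test over 2 pairs, p = 1 for each, smallest possible 0.5). The replicate 1 pair differed by 0 bp for both marks, so the result of this test was fixed and decides nothing. The labels do not say that a number marks a shared culture or day, so the pairs share only a number. Depth was not used here.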
